A study of Mus musculus with 6 samples.

Results

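A set of 10 genes that mark the epithelial or the mesenchymal state of a carcinoma cell was followed in 4T1 cells with and without induction of a LINE-1 (L1) retrotransposon. They were taken by symbol from a table of 24421 genes, and all 10 were found and tested. Of the 10, 4 mark the epithelial state (Cdh1, Epcam, Krt8 and Krt18), 2 mark the mesenchymal state (Vim and Fn1) and 4 encode transcription factors that repress epithelial genes (Snai1, Twist1, Zeb1 and Zeb2). 4T1-tetL1(GLucAI) cells, derived from a mouse breast carcinoma of strain BALB/cfC3H, stably carry a cassette in which doxycycline switches on a recoded mouse L1 together with firefly luciferase. The L1 contains a Gaussia luciferase gene that becomes readable only after retrotransposition. The 3 untreated libraries came from cells without doxycycline (untreated in the titles, vehicle in the treatment tag), and 3 more from cells kept for 48 h in 400 ng/mL doxycycline. All 6 libraries therefore carry the cassette, which sits in a stable population and not in a single described clone. No library came from doxycycline-treated cells without the cassette, so effects of the drug and of L1 cannot be told apart. The study describes biological triplicates, the labels do not name separate cultures, and p-values measure only the spread between these libraries. The cassette's own transcript was not analysed here.

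In an epithelial cell, E-cadherin joins neighbouring cells through catenins, and keratin filaments brace the cytoplasm. During an epithelial-mesenchymal transition (EMT) cells lower these genes and raise vimentin, fibronectin and other genes of motile cells. Factors of the SNAI, TWIST and ZEB families drive the change, and SNAI and ZEB proteins repress epithelial genes through E-box sequences in their promoters. The 4T1 line is known for metastasizing spontaneously after transplantation into the mammary gland.

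The data showed high levels of epithelial and mesenchymal genes in the same libraries, and 1 of the 10 genes passed the test between the groups. Whether single cells carried both cannot be told from bulk RNA. Of the 10 genes, 0 were called higher and 1, Fn1, was called lower, a fall of 12.7%. At an unadjusted p under 0.05 there were 0 higher and 2 lower (Fn1 and Zeb1), where 16.2% of all tested genes had such a p in either direction. DESeq2 and limma voom also called 0 higher and 1 lower. Zeb1, the least abundant of the 10, stood 53.8% lower in doxycycline libraries but missed the threshold. Among all 13084 tested genes, 3.09% were called, with 0.925% called higher and 2.16% called lower (edgeR quasi-likelihood test, Benjamini-Hochberg adjusted p under 0.05). Values are CPM (counts relative to the library total, with TMM scaling between libraries), and log2 fold changes, in brackets given as log2, compare doxycycline with untreated libraries. Adjusted p-values are from edgeR unless another tool is named. With the correction for GC content and transcript length the split of all calls moved from 121 higher and 283 lower to 391 higher and 520 lower.

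Depth allowed small differences to be measured. Library totals ran from 33537520 to 43631312 counts in untreated and from 31653464 to 41264244 in doxycycline libraries, and 3 counts, the limit that a count of 0 allows, correspond to 0.0683 to 0.0944 CPM (counting error only). Doxycycline replicate 2 stood somewhat apart from the others of its group, with a chi-square per degree of freedom of 22.1 and 14.5 against replicates 1 and 3, where the remaining pairs of both groups gave 6.14 to 13.1. This statistic rises with depth and includes the ribosomal RNA row Rn45s. Rn45s took 12.1% of the counts of doxycycline replicate 2, against 9.6% and 10.5% in doxycycline replicates 1 and 3. How much of the distance it accounts for was not tested. Markers of other cell types were scarce. Of 20 such markers 17 averaged under 1 CPM, and Adgre1, Col3a1 and Lum had 0 counts in every library. All 20 summed to 49.6 to 50.1 CPM in untreated and 40.2 to 43.3 CPM in doxycycline libraries, most of it Pdgfra, which is treated among the mesenchymal genes. Without Pdgfra and Cd68 the other 18 summed to 3.21 to 3.39 CPM in untreated and 3.46 to 4.11 CPM in doxycycline libraries. The same 6 libraries held Krt8, Krt18 and Krt7, keratins of simple epithelium, each at 362 CPM or more. The basal keratin Krt5 had 0 counts, and Krt14 averaged 3.04 CPM in untreated and 2.65 CPM in doxycycline libraries. In bulk RNA, fewer cells in a state and less RNA per cell cannot be told apart.

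Promoter sequences are shown first because the transcription factors among the 10 genes act on E-boxes. RefSeq promoter windows of build GRCm38.p6 were at hand for 7 of the 10 genes (Epcam, Krt8, Krt18, Vim, Snai1, Twist1 and Zeb2). The 250 bases before each start were searched for the E-box letters CACCTG and CAGGTG, which are the same site read on either strand. The letters occurred in the windows of 4 of these 7 genes, namely Epcam, Krt8, Krt18 and Snai1. Of all 27025 genes with a window, 19.4% held them in any window. All 3 epithelial genes with a window are shown, 5′ to 3′ on the strand of the gene and ending at the base before its start, with the E-box letters in capitals.

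Epcam, chr17:87635729-87635978, plus strand: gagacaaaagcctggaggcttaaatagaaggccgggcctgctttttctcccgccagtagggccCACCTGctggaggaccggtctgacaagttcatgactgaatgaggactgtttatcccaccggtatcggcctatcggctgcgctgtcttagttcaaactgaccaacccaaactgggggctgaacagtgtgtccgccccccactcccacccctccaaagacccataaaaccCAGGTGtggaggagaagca

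Krt8, chr15:102004343-102004592, minus strand: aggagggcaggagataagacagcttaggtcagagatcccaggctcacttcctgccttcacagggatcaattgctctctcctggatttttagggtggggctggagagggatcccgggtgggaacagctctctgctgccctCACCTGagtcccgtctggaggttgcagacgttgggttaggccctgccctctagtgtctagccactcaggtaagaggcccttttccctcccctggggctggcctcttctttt

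Krt18, chr15:102027966-102028215, plus strand: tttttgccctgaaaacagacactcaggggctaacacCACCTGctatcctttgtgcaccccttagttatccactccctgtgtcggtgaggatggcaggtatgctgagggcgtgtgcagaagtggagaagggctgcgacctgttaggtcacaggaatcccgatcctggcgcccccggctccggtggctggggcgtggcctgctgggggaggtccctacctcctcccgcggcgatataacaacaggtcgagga

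The first capital of each site lay 187 and 19 bases before the start of Epcam, 111 before that of Krt8 and 214 before that of Krt18. The window of Snai1 held 1 such site, 126 bases before its start, shown here because this gene encodes a factor of the E-box-binding kind itself.

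Snai1, E-box at chr2:167538069-167538074, plus strand, with flanks: gcagcccaggcgCACCTGctccggtctcag

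Such letters are a description of the sequence, and no binding was measured. The windows of Vim and Twist1 and the 4 windows of Zeb2 held none.

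The order of the genes by level was the same in both groups. Per kb of transcript, which allows genes to be compared, Vim came first with 919 ± 18.4 CPM per kb in untreated libraries (SD, n = 3 here and below). Krt18 followed with 441 ± 4.87, Fn1 with 355 ± 4.58 and Krt8 with 209 ± 5.26 CPM per kb. Ranks among 12980 tested genes with a known transcript length used the mean of all 6 libraries. By that mean Vim exceeded 99.8% of them, and these 4 genes, 2 epithelial and 2 mesenchymal, each exceeded at least 98.2%. In untreated libraries Cdh1 stood at 69.8 ± 2.05 and Epcam at 16.3 ± 0.666 CPM per kb. Among the transcription factors Zeb2 was highest with 12.5 ± 0.175 CPM per kb, close below Epcam, then Twist1 with 8.17 ± 0.508 and Snai1 with 6.18 ± 0.556. By the mean of all 6 libraries Zeb1 lay below all but 3.88% of genes. In untreated libraries it came last of the 10 with 0.22 ± 0.0316 CPM per kb. Snai1, next above it, was 28 times as high. No pair of neighbours in this order overlapped between libraries of a group. In untreated libraries the closest were Krt18 and Fn1, 1.24 times apart, and Epcam and Zeb2, 1.3 times apart.

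**Figure D1:**
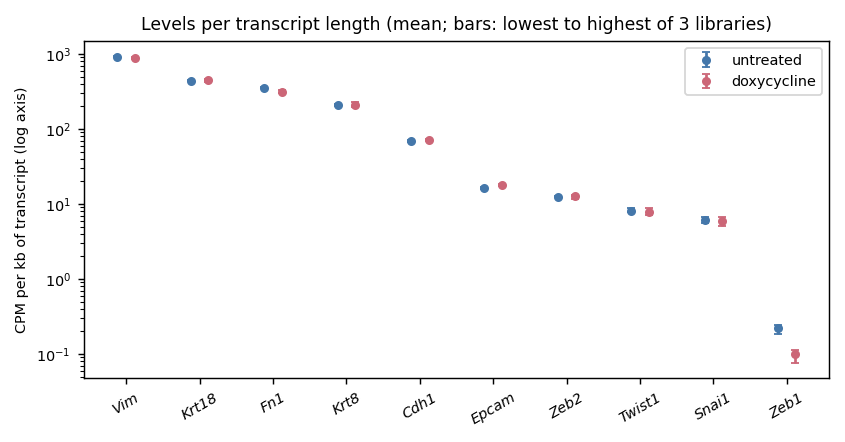
Level of each of the 10 genes in CPM per kb of transcript (log axis), with the mean of 3 untreated (blue) and 3 doxycycline libraries (red) and bars from the lowest to the highest library. Vim, Krt18, Fn1 and Krt8 lie at the top, and Zeb1 lies far below the other 9 genes.

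Of the 4 epithelial genes, 0 were called. Cdh1, which encodes E-cadherin, the adhesion protein of epithelial junctions (chromosome 8, 106603350 to 106670247), had 319, 308 and 301 CPM in untreated replicates 1 to 3 and 308, 320 and 323 CPM in doxycycline replicates 1 to 3. The groups overlapped, and the log2 fold change was 0.036 (SE 0.044, 95% interval -0.057 to 0.13, adjusted p 0.752). Changes of Cdh1 beyond these bounds lay outside the interval.

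Epcam encodes the epithelial cell adhesion molecule (chromosome 17, 87635979 to 87651127). It had 34.6, 32.9 and 32 CPM in untreated and 37.1, 36.3 and 35.5 CPM in doxycycline libraries. Each doxycycline library was above each untreated one, as happened in either direction for 21.3% of all tested genes. Its log2 fold change of 0.13, or 9.36%, had an SE of 0.065 and missed the threshold (95% interval -0.0061 to 0.26, adjusted p 0.336).

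Krt8 and Krt18 encode partner keratins that assemble into the filaments of simple epithelia. Both lie on chromosome 15 (101996711 to 102004342 and 102028216 to 102032026), on opposite strands. Krt8 had 421, 407 and 401 CPM in untreated libraries and 381, 453 and 409 CPM in doxycycline libraries. Krt18 had 641, 627 and 632 CPM in untreated libraries and 615, 669 and 640 CPM in doxycycline libraries. For both genes doxycycline replicate 1 was the lowest and replicate 2 the highest of the 6 libraries, so the doxycycline group enclosed the untreated one. Krt7, another simple-epithelial keratin, had the same lowest and highest library. The log2 fold changes were 0.016 for Krt8 (SE 0.053, 95% interval -0.094 to 0.13, adjusted p 0.92) and 0.018 for Krt18 (SE 0.044, 95% interval -0.073 to 0.11, adjusted p 0.886). Both turned negative without doxycycline replicate 2, to -0.054 and -0.014. The ratio of Krt18 to Krt8 per transcript length was 2.07, 2.1 and 2.15 in untreated and 2.2, 2.01 and 2.13 in doxycycline libraries. This ratio, examined after the values were seen, overlapped between the groups. A processed pseudogene of Krt8 is annotated in the mouse genome, and the treatment of reads that map to several places is not given, so the Krt8 level is uncertain to that extent.

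**Figure D2:**
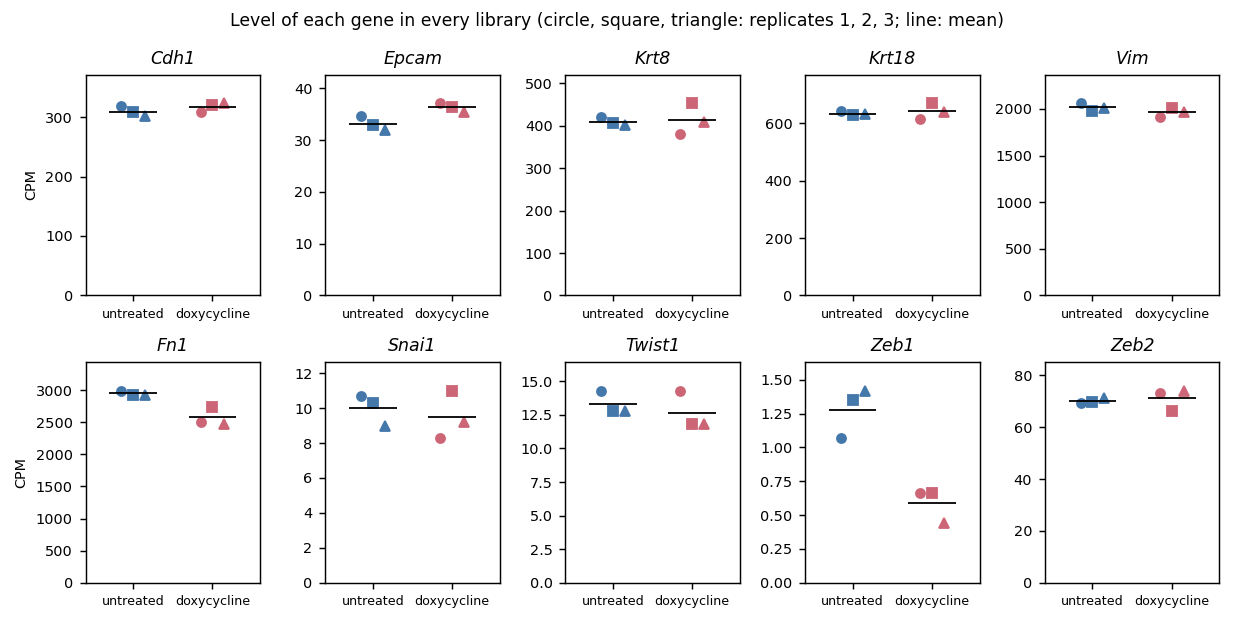
CPM of the 10 genes in 3 untreated (blue) and 3 doxycycline libraries (red), one panel per gene with its own axis from 0, symbols for replicates 1 to 3 and a line at the mean. The groups separate for Epcam, Fn1 and Zeb1 and overlap for the other 7 genes. Among all tested genes they separate for 21.3%.

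Of the 2 mesenchymal genes, Fn1 was called and Vim was not. Vim encodes vimentin, the intermediate filament protein of mesenchymal cells (chromosome 2, 13574311 to 13582826). It had 2060, 1981 and 2007 CPM in untreated libraries and 1910, 2013 and 1967 CPM in doxycycline libraries. The groups overlapped, with a log2 fold change of -0.038 (SE 0.042, 95% interval -0.13 to 0.049, adjusted p 0.711).

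Fn1 encodes fibronectin, a matrix glycoprotein bound by integrins (chromosome 1, 71585473 to 71653280). It had 2993, 2933 and 2922 CPM in untreated libraries and fell to 2508, 2743 and 2475 CPM in doxycycline libraries. All doxycycline libraries lay below all untreated ones, and replicate 2 came closest to them. The mean was 2949 ± 38.1 CPM without and 2575 ± 147 CPM with doxycycline, a log2 fold change of -0.20 (SE 0.045, 95% interval -0.29 to -0.10, adjusted p 0.0159). The call was kept under 10 of 10 other scalings, filters and tests, but it was lost in 4 of the 6 fits that left out a library. These were the fits without untreated replicate 1 (adjusted p 0.0953), 2 (0.0779) or 3 (0.113) and without doxycycline replicate 3 (0.147), in which the log2 fold change stayed between -0.20 and -0.17. Without doxycycline replicate 2 it was -0.24 (adjusted p 5.09e-07).

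The ratio of Cdh1 to each mesenchymal gene within a library was looked at after the values were seen and is given as a description. Cdh1 relative to Vim, per transcript length, was 0.0767, 0.0769 and 0.0743 in untreated and 0.0799, 0.0788 and 0.0812 in doxycycline libraries. Cdh1 relative to Fn1 was 0.2, 0.197 and 0.194 in untreated and 0.231, 0.219 and 0.245 in doxycycline libraries. Both ratios were higher in every doxycycline library, by 0.074 and 0.23 on the log2 scale. The second of these restates the fall of Fn1 beside a Cdh1 that was not called, and no p is given for ratios picked in this way.

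**Figure D3:**
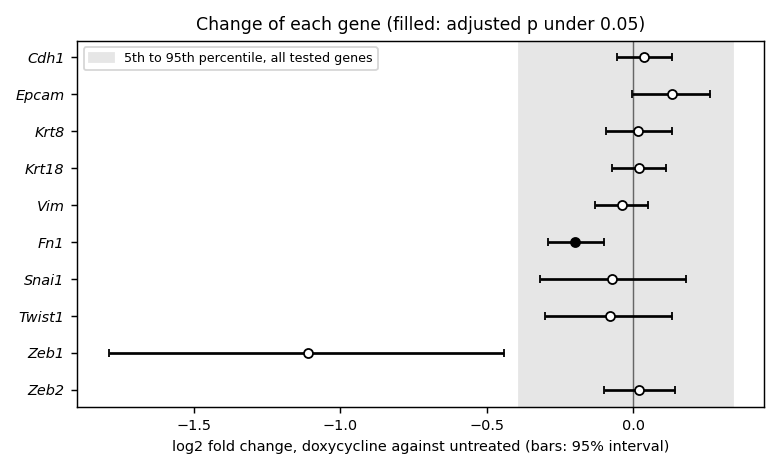
Log2 fold change of the 10 genes, doxycycline against untreated, with 95% intervals; a filled point has an adjusted p under 0.05 and the grey band spans the 5th to 95th percentile of all tested genes (-0.39 to 0.34). Fn1 alone is filled, and Zeb1 lies outside the band with the widest interval.

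Zeb1 had the largest difference among the transcription factors and the fewest reads. It encodes a zinc-finger repressor of Cdh1 (chromosome 18, 5591327 to 5775468) and was counted 47, 45 and 53 times in untreated libraries and 21, 27 and 17 times in doxycycline libraries. That is 1.07, 1.35 and 1.42 CPM against 0.66, 0.661 and 0.444 CPM, with every doxycycline library below every untreated one. Its log2 fold change was -1.11 with a wide interval of -1.79 to -0.44 (SE 0.32), an unadjusted p of 0.00247 and an edgeR adjusted p of 0.0667. The adjusted p passed the threshold without a filter on low counts (0.0399), with at least 10 counts in every library (0.0388) and with a correction for GC content and transcript length (0.0397). It missed it in the 7 other settings, up to 0.084, and in all 6 fits that left out a library, from 0.0625 to 0.259. Gm10125, a noncoding gene that overlaps the start of Zeb1, had 0 counts in untreated libraries and 3, 0 and 1 in doxycycline libraries.

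**Figure D4:**
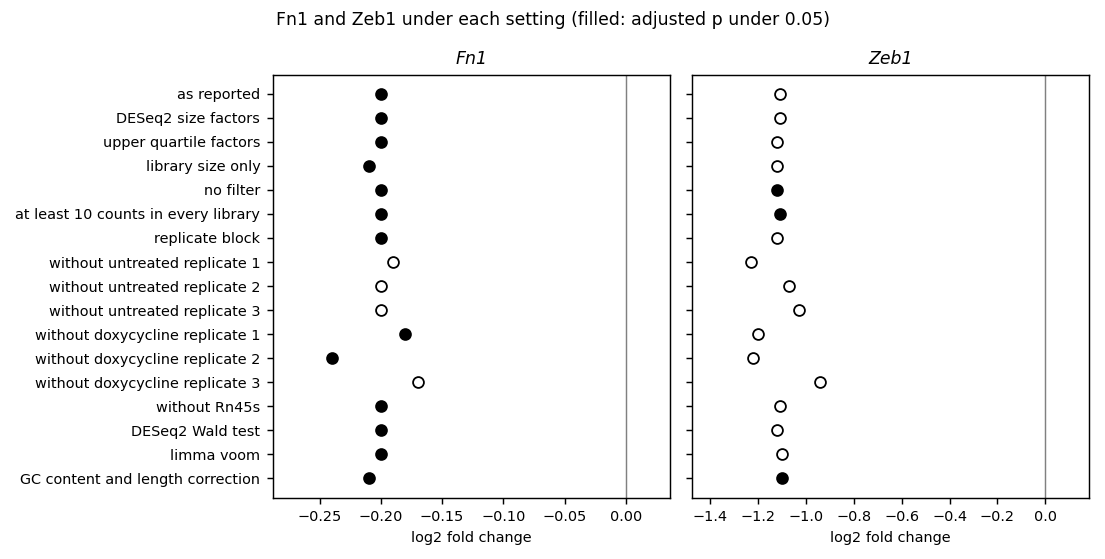
Log2 fold change of Fn1 (left) and Zeb1 (right), doxycycline against untreated, as reported and under each of 16 other settings; filled points have an adjusted p under 0.05. All values are below 0, Fn1 is open in 4 of the fits that leave out a library, and Zeb1 is filled in 3 settings.

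Zeb2, the more abundant ZEB gene (chromosome 2, 44983512 to 45117442), had 69.5, 69.8 and 71.4 CPM in untreated and 73.3, 66.1 and 74.1 CPM in doxycycline libraries. Its log2 fold change of 0.019 lay well within the spread (SE 0.057, 95% interval -0.10 to 0.14, adjusted p 0.912). The antisense gene Zeb2os overlaps Zeb2 and had 10 to 15 counts in each library. Reads of the shared stretch cannot be divided between them without the strand setting.

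Snai1 encodes a zinc-finger repressor of Cdh1 (chromosome 2, 167538195 to 167542814), and Twist1 a basic helix-loop-helix factor (chromosome 12, 33957671 to 33959831). Snai1 had 10.7, 10.3 and 9 CPM in untreated and 8.27, 11 and 9.2 CPM in doxycycline libraries. Twist1 had 14.3, 12.8 and 12.8 CPM in untreated and 14.3, 11.8 and 11.8 CPM in doxycycline libraries. The groups overlapped for both genes. The log2 fold changes were -0.073 for Snai1 (SE 0.12, 95% interval -0.32 to 0.18, adjusted p 0.832) and -0.081 for Twist1 (SE 0.10, 95% interval -0.30 to 0.13, adjusted p 0.758). For Snai1 the sign turned without doxycycline replicate 1, to 0.014.

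Some related genes had few or 0 counts. Snai2, which encodes Slug, and the mesenchymal cadherin Cdh2 were not counted in any of the 6 libraries (0 counts, an upper limit of 0.0944 CPM in the smallest library). The factor Twist2 had 16, 8 and 4 counts in untreated and 4, 2 and 7 in doxycycline libraries. P-cadherin (Cdh3) had 2 counts in each untreated library and 6, 6 and 4 in doxycycline libraries, too few to test. E-cadherin was thus the only one of these 3 cadherins with more than 6 counts in any library. Of the genes that uphold the epithelial state, Ovol2 had at most 6 counts in a library, and the repressor Ovol1 averaged 4.43 CPM in untreated and 4.99 CPM in doxycycline libraries (log2 0.18 with SE 0.15, adjusted p 0.611). The epithelial splicing regulator Esrp1 was present at 26.8 ± 1.02 CPM without and 24.3 ± 1.83 CPM with doxycycline (log2 -0.14 with SE 0.077, adjusted p 0.366).

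Beyond the 10 genes, 4 wider lists gave 122 further genes, of which 100 could be tested, with 0 called higher and 12 called lower. That is 12% of the tested genes of these lists, against 3.09% of all tested genes. The 10 genes and the lists were chosen with earlier results of these data known. Comparisons of either with all genes, above, here and below, are therefore a description only. Without adjustment 30 of the 100 had a p under 0.05, 24 of them lower, against 16.2% of all tested genes in either direction and 8.95% lower. The median log2 fold change was -0.06 over the 100 genes and 0.0025 over all tested genes. DESeq2 called 0 higher and 14 lower, and limma voom 0 and 12. With the correction for GC content and length 2 were called higher and 18 lower, and without a filter 1 and 15. Leaving out doxycycline replicate 1 gave 2 and 12. The total ran from 5 without untreated replicate 1 to 19 without doxycycline replicate 2, and 6, 7 and 6 were called without untreated replicates 2 and 3 and doxycycline replicate 3.

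The epithelial list of adhesion, keratin and identity genes had 42 tested members besides the 4 above, with 0 called higher and 3 called lower and a median log2 fold change of -0.023. The called share was 7.14%, where 3.09% of all tested genes were called. Krt19, a keratin of simple epithelia, had 63.3, 65.7 and 61.4 CPM in untreated and 50.8, 55.8 and 47.5 CPM in doxycycline libraries, a log2 fold change of -0.31 (adjusted p 0.00782, SE 0.063). Its groups did not overlap, unlike those of Krt8, Krt18 and Krt7, and whether it differed from them was not tested. Ctnnb1 encodes beta-catenin, which links E-cadherin to the cytoskeleton and also acts in Wnt signalling. By the transcript lengths used here it was the most abundant tested gene of this list per length after Krt8 and Krt18. Krt7 ranked below it with a length of 4094 bases at 396 CPM in untreated libraries, where Krt8 had 1958 bases and 410 CPM. The rank thus depends on the transcript chosen. Ctnnb1 fell from 666 ± 4.67 to 590 ± 14 CPM (log2 -0.17 with SE 0.042, adjusted p 0.0216). Spint2, an inhibitor of membrane serine proteases, fell from 168 ± 3.39 to 148 ± 1.26 CPM (log2 -0.19 with SE 0.044, adjusted p 0.0203). The calls of Ctnnb1 and Spint2 were lost without any single untreated library and without doxycycline replicate 3 (adjusted p 0.0537 to 0.143). That of Krt19 was lost without untreated replicate 2 (0.0713) and without doxycycline replicate 3 (0.0799). Of the other junction partners of Cdh1, 3 were looked at after their values were seen and were not called, with log2 fold changes of -0.029 for alpha-catenin (Ctnna1, adjusted p 0.825), -0.035 for p120-catenin (Ctnnd1, adjusted p 0.752) and -0.16 for plakoglobin (Jup, adjusted p 0.184, unadjusted 0.0162). Jup had 62.7, 62.2 and 59.4 CPM in untreated and 51.3, 58.3 and 55.6 CPM in doxycycline libraries, which did not overlap. The epithelial markers Cldn4 and Cldn7 had positive values and were not called (log2 0.25, adjusted p 0.0858, and log2 0.33, adjusted p 0.23). Of the 42 tested genes besides the 4, 17 had a positive and 25 a negative log2 fold change.

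The mesenchymal list had 18 tested members besides Vim and Fn1, with 0 called higher and 2 called lower and a median log2 fold change of -0.0083. Of these 18, 9 had a positive and 9 a negative log2 fold change. The called share was 11.1%, where 3.09% of all tested genes were called. S100a4, a calcium-binding protein associated with motility and metastasis, had 579, 513 and 542 CPM in untreated and 436, 388 and 410 CPM in doxycycline libraries. Its log2 fold change was -0.40 (adjusted p 4.9e-05, SE 0.052), and at 1093 CPM per kb in untreated libraries it exceeded Vim. Pdgfra, a receptor for platelet-derived growth factor that is also used as a fibroblast marker, fell from 36.7 ± 1.37 to 27.8 ± 0.669 CPM (log2 -0.40 with SE 0.066, adjusted p 0.000952). Of the other fibroblast markers, Col3a1 and Lum were at 0 counts, while Col1a1, Col1a2, Dcn and Pdgfrb were counted at a mean under 1 CPM. The calls of S100a4 and Pdgfra were kept in all 6 fits that left out a library. Msn, which encodes the membrane-cytoskeleton linker moesin, had 1158 ± 28.1 CPM without and 1176 ± 12.7 CPM with doxycycline (log2 0.022, adjusted p 0.851).

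The list of EMT-related transcription factors also holds Id1, Id2 and Id3, so its values do not describe DNA-binding factors alone. Besides Snai1, Twist1, Zeb1 and Zeb2, 14 of its genes were tested. Of these, 13 had a log2 fold change below 0, with 0 called higher and 6 called lower. The median was -0.20. Over all tested genes 49.2% were below 0, 2.16% were called lower and the median was 0.0025. The 3 largest called falls were in Id2, Id3 and Id1, which encode helix-loop-helix proteins that lack a DNA-binding domain and hold basic helix-loop-helix factors inactive, and which respond to bone morphogenetic protein and TGF-beta signals. Id2 had 26.9, 29 and 28.7 CPM in untreated and 17.5, 16.8 and 17.4 CPM in doxycycline libraries, a log2 fold change of -0.71 (adjusted p 4.75e-06, SE 0.076). Id3 fell from 25.7 ± 1.23 to 17.1 ± 1.45 CPM (log2 -0.59 with SE 0.084, adjusted p 0.000169). Id1 fell from 23.1 ± 0.954 to 17.5 ± 1.22 CPM (log2 -0.40 with SE 0.083, adjusted p 0.00697). In all 3 genes the groups were separated, as in 57.1% of the 14 tested genes of this list and 21.3% of all tested genes. Only the Id1 call was lost in a fit without a library (untreated replicate 1, adjusted p 0.0656).

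The remaining calls in this list were smaller. Sox9, a factor of progenitor cells, fell from 118 ± 2.13 to 102 ± 2.91 CPM (log2 -0.21 with SE 0.048, adjusted p 0.0138). Sox4, which takes part in TGF-beta-driven EMT, fell from 130 ± 0.941 to 113 ± 5.18 CPM (log2 -0.20 with SE 0.048, adjusted p 0.0254). Tcf4, an E-protein and the sixth call, is named here after its values were seen (log2 -0.20, adjusted p 0.0256). The calls of Sox9 and Tcf4 were lost without any single untreated library and without doxycycline replicate 3, and that of Sox4 also without doxycycline replicate 1 (adjusted p 0.0528 to 0.174). Hmga2, a chromatin protein that induces Snai1 and Twist1 in other systems and the most abundant of the list per length, had 345 ± 10.7 CPM without and 354 ± 27.5 CPM with doxycycline (log2 0.037 with SE 0.052, adjusted p 0.79).

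TGF-beta is the best known inducer of EMT. The list of its pathway also holds genes of bone morphogenetic protein signalling, among them Bmp7, Bmpr1a, Bmpr2, Smad1, Smad5 and Smad6. Its values therefore do not describe TGF-beta signalling alone. Of the 26 tested genes of the list 22 had a log2 fold change below 0, with a median of -0.074. Over all tested genes 49.2% were below 0. In this list 0 were called higher and 1 lower, a share of 3.85% that is close to the 3.09% over all tested genes. Tgfbr3, the co-receptor betaglycan, fell from 46.6 ± 2.44 to 37.7 ± 0.708 CPM (log2 -0.31 with SE 0.063, adjusted p 0.0071), a call lost without untreated replicate 1 (adjusted p 0.0764). The ligand Tgfb1 had 77.2, 78.3 and 78.1 CPM in untreated and 66.4, 70.5 and 68 CPM in doxycycline libraries. Its groups did not overlap, yet its log2 fold change of -0.19 (SE 0.052) just missed the threshold (adjusted p 0.0545), which it passed in 5 of 10 other settings and in 1 of the 6 fits that left out a library (adjusted p 0.00873 to 0.215). The nuclear corepressor Tgif1 had a log2 fold change of 0.053 (adjusted p 0.662) and the latent TGF-beta binding protein Ltbp1 one of -0.0095 (adjusted p 0.947).

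**Figure D5:**
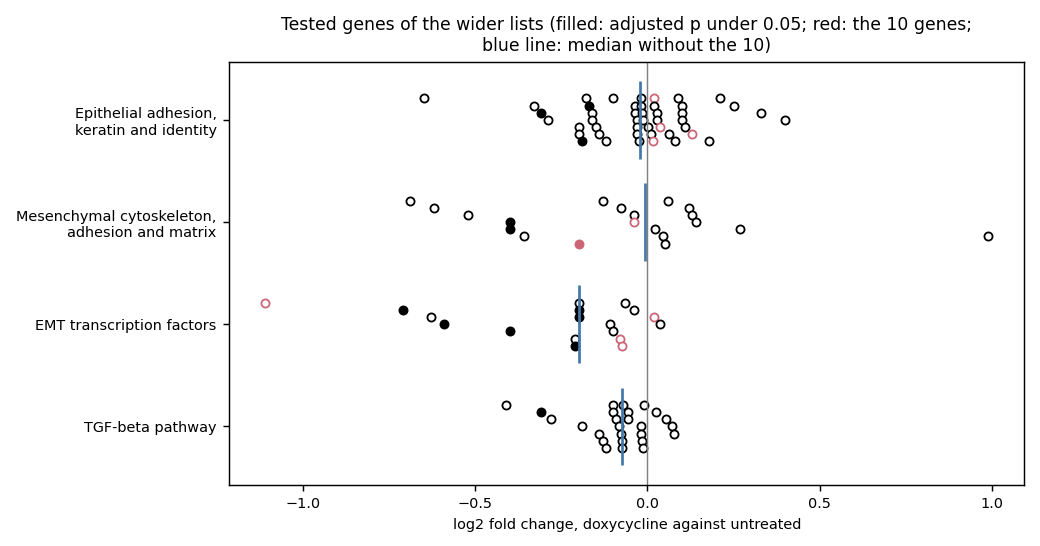
Log2 fold change, doxycycline against untreated, of every tested gene in the 4 lists, 1 row per list; filled points have an adjusted p under 0.05, red points are the 10 genes and the blue line is the median of the others. All filled points lie below 0, and the median of the transcription factor list, which includes Id1, Id2 and Id3, is -0.20.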

How the data were processed

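Stranded libraries were made from total RNA of 6 samples after removal of ribosomal RNA. The authors aligned reads with STAR to mm10/GRCm38, counted them with featureCounts of Subread 1.6.2 (per the labels) and deposited raw counts per gene. Strand setting and handling of multi-mapping reads are not given in the sources used here. All 6 columns matched a sample by library code, and groups come from the titles.

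The quasi-likelihood test of edgeR 4.0.16 (R 4.3.3; TMM, robust, group as the only term) was fitted to the 13084 genes kept by filterByExpr, where the study used DESeq2. P-values were adjusted over all of them. SE is the absolute log2 fold change over the square root of F, and 95% intervals use its t distribution. Transcript length is that of the longest GENCODE M21 transcript paired with RefSeq. Gene coordinates are RefSeq GRCm38.p6.

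Alternatives were other scalings and filters, a replicate block, leaving out each library, DESeq2 1.42.0, limma 3.58.1 voom and leaving out Rn45s. A loess correction for GC content and length (99.2% of tested genes) was added after the data were seen. The members and lists were chosen with earlier results of these data known. Named were all members, per list the called genes (5 with the smallest p at most) and the 2 most abundant, 8 fixed genes and the cell type markers (Krt5, Krt7, Krt14, Cldn4, Cldn7 and those of other cells). Tcf4, Ctnna1, Ctnnd1 and Jup, and the genes overlapping Zeb1 and Zeb2, were named after their values were seen.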

Additional observations from a re-analysis of the deposited data

How the results depend on the processing

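Of 100 refits of the 10 genes under other scalings, filters, tests and corrections, 97 kept direction and side of the threshold, and the other 3 were the calls of Zeb1 given in the text. Of these 10, those called higher stayed at 0 in all 16 settings. The number called lower was 2 without a filter, with at least 10 counts in every library and with the GC content and length correction, where Zeb1 joined Fn1. It ran from 0 to 1 over the fits that left out a library. The further list genes called rose to 20 with the GC content and length correction, added after the data were seen, and ran from 5 to 19 over the leave-out fits, against 12 as reported. The cause of these differences was not tested, although fits with 5 libraries have fewer samples. Small values changed sign over the leave-out fits. They ran from -0.054 to 0.073 for Krt8, -0.014 to 0.048 for Krt18, -0.20 to 0.014 for Snai1, -0.012 to 0.07 for Zeb2, -0.02 to 0.092 for Hmga2 and -0.034 to 0.011 for Ltbp1. No scaling moved the median of all tested genes beyond -0.0074. With the replicate number as a block, 0 of the 10 genes were higher and 1 lower, and 12 further genes were called, as without it. Libraries with the same number did not deviate together (Pearson r of -0.0399, -0.00449 and 0.0176). These values cannot tell whether the cultures were set up in pairs, which the labels do not state. Depth limits Zeb1, Cdh3 and Twist2, which had at most 53, 6 and 16 counts in any library. All tested genes called were 210 higher and 439 lower without a filter, and 44 to 269 higher and 116 to 487 lower over the leave-out fits.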

Other observations

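The genes whose pattern over the 6 libraries was most like that of Cdh1 were Eif3l, which encodes a translation initiation subunit (Pearson r 0.996, Spearman rho 0.943), Tamm41 (r 0.982, rho 1) and Sh2b1 (r 0.981, rho 1), among 11656 genes of at least 1 CPM. Without the 2 libraries farthest from the median of Cdh1 the r values were 0.99, 0.971 and 0.976. For Vim they were the glycolytic enzyme gene Gapdh (r 0.996, rho 0.943), Tmem173 (r 0.995, rho 1), which encodes STING, and Jund (r 0.992, rho 0.943), with r of 0.989, 0.965 and 0.924 without the 2 farthest libraries. Cdh1 and Vim spanned only 0.0986 and 0.109 log2 units over the libraries, and 22 and 40 genes had an r over 0.95 with them. The points share 1 cell line and 1 contrast, so these values describe the libraries only.

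The microRNAs of the miR-200 family are known repressors of Zeb1 and Zeb2. The rows of their hairpins were looked up after the other values were seen. Mir200b, Mir200c, Mir141 and Mir429 had 0 counts in every library, and Mir200a had 2 counts in untreated replicate 2 and 0 elsewhere. Mature microRNAs are too short to be captured by such libraries, so their levels were not measured.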
